A study of Rattus norvegicus with 2 samples.

Results

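The kinesin, kinetochore and spindle genes are the motors, chromosome attachment proteins and kinases that move chromosomes in mitosis, together with the kinesins that carry cargo along microtubules between divisions. They were taken from the expression table by symbol: kinesins (Kif), centromere proteins (Cenp), condensin subunits (Ncap), aurora and polo-like kinases, and listed checkpoint, kinetochore and passenger genes. That choice gave 87 of the 17049 genes in the table. The RNA came from cultured primary oligodendrocyte precursor cells (OPCs, the dividing glia that give rise to oligodendrocytes) of adult wild-type rat brain. The Aβ group was exposed for 2 days to amyloid-β (Aβ), which forms the plaques of Alzheimer disease, at 1 µM, and the control group received the solvent DMSO. The treatment text of both samples names the Aβ exposure, so the control was identified by its DMSO treatment label. Both cultures were grown in OGM medium at 37 °C and 5% CO2. With 1 library per group no difference has a replicate check, so no p-value is given for any of them.

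In mitosis the chromosomes are compacted by condensins and untangled by topoisomerase II, and each centromere builds a kinetochore that grips spindle microtubules. Kinesins slide, shorten or walk along these microtubules, aurora and polo-like kinases time the steps, and the spindle checkpoint delays anaphase until every kinetochore is attached. Transcripts of this machinery rise in late S phase and G2 and are low in cells that have left the cycle, as oligodendrocytes do on differentiation. Cargo kinesins are made in dividing and resting cells alike, and they carry vesicles, organelles and mRNA along cell processes.

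Depth was nearly equal, at 15704932 estimated reads in the Aβ library against 15663751 in the control library. OPC markers were present, with Olig1 (an OPC lineage factor) at 1420.5 TPM in Aβ-exposed OPCs, against 1557 TPM in DMSO controls. TPM is a level corrected for gene length and library total. Ptprz1 followed at 866 TPM (Aβ) and 905 TPM (control), Olig2 at 336 and 375 TPM, Pdgfra at 23.2 and 24.6 TPM and Vcan at 14.3 and 13.3 TPM. The remaining OPC markers were scarce: Sox10 had 22 reads with Aβ against 33 in the control, and Gpr17 had 4 against 5. Cspg4, the NG2 proteoglycan of OPCs, had 540 reads with Aβ against 303 in the control. Astrocyte markers were also high: all 7 listed were detected, and their TPM summed to 2122 (Aβ) and 2161 (control), where the 8 OPC markers summed to 2667 (Aβ) and 2880 (control). The 8 microglia markers summed to 106 and 122 TPM and the 8 neuron markers to 137 and 134 TPM. The 8 markers of myelinating oligodendrocytes summed to 211 and 223 TPM, and the 5 endothelial and mural markers found to 5.32 and 5.40 TPM, in each case with the Aβ library first. None of these markers was at 0 in either library.

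Mitotic genes were slightly lower in the Aβ library, and most of them shared this direction. The read ratio of a gene is its reads with Aβ over its reads in the control, each scaled to the library total, with an exact Clopper-Pearson 95% interval that covers counting error only. A gene is called lower or higher by reads where that interval lies wholly below or above 1. Of 84 members with 50 or more reads over both libraries, called measured here, 36 were lower by reads and 4 higher, where 12.7% of the 12515 genes at that depth were lower and 12.2% higher. As shares, 42.9% of the members were lower and 4.76% higher. By a rule of size, 11 members had a read ratio at or under 1/1.2 and 3 at or over 1.2, against 7.71% and 8.69% of all genes. The typical member was 0.930-fold, with a median log2 read ratio of −0.11 and an order-statistic 95% interval of −0.14 to −0.07, where the median of all genes was 0.00. Ratios under 1 were found for 62 members (73.8%), against 49.4% of all genes.

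Of 55 measured members placed in mitotic roles, 47 had a ratio under 1, 30 were lower by reads and 1, Ncapg2, was higher. This set need not hold every member with a part in division. The microtubule depolymerase gene Kif2a and the centriole genes Plk4 and Cenpj were placed outside it. Kif2a was higher by reads (1.08, 1.01 to 1.15), Cenpj was lower (0.853, 0.758 to 0.960), and the interval of Plk4 (1.01) included 1. The counts were not repeated with these genes added. The median mitotic member was 0.909-fold (log2 −0.14, −0.17 to −0.10). Summed over all 56 mitotic genes there were 79460 reads in Aβ-exposed OPCs (exact Poisson 95% interval 78908 to 80014), against 87304 in DMSO controls (86726 to 87885), a ratio of 0.908 (0.899 to 0.917). Of all reads they took 0.506% (Aβ) and 0.557% (control). The 22 measured transport and other kinesins were split, with 12 under 1 and 10 over 1. By reads 5 were lower (22.7%) and 2 higher (9.09%), against 12.7% and 12.2% of all genes. Their median was −0.03 (−0.16 to 0.07), an interval that holds the mitotic median. Their summed reads gave a ratio of 0.966 (0.951 to 0.983), also below 1. The roles were not tested against each other. The size was small: 8 of the 55 mitotic members (14.5%) were at least 1.2-fold lower and 0 at least 1.2-fold higher. Of the 22 other kinesins 3 (13.6%) were at least 1.2-fold lower and 1 at least 1.2-fold higher, all of them with under 200 reads. At 200 or more reads 0 of 16 other kinesins passed 1.2-fold either way. The mitotic members stayed at 8 of 55 lower there, against 4.79% of all genes. In bulk RNA, fewer dividing cells and less mRNA in each dividing cell cannot be told apart.

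Several cell type markers differed between the libraries by about as much as the mitotic members, and some by more. Among all genes with 50 or more reads, 12.7% were lower by reads and 12.2% higher. Of 7 measured OPC markers 4 were lower by reads and 1, Cspg4, was higher (1.78, 1.54 to 2.05). On the log2 scale the median of these 7 was −0.10 (−0.59 to 0.83). The lower ones were Olig2 (read ratio 0.890, 0.864 to 0.917), Olig1 (0.908, 0.893 to 0.923), Pdgfra (0.931, 0.867 to 0.999) and Ptprz1 (0.952, 0.941 to 0.963). Of 7 astrocyte markers 4 were lower and 2 higher by reads, and their median was −0.13 (−0.24 to 0.08). Aqp4 (0.849, 0.804 to 0.898), Gfap (0.887, 0.861 to 0.914), Aldh1l1 (0.907, 0.832 to 0.988) and S100b (0.916, 0.878 to 0.956) were lower, while Gja1 (1.06, 1.03 to 1.09) and Slc1a3 (1.02, 1.00 to 1.03) were higher. Among 7 measured neuron markers, Syt1 (0.490, 0.297 to 0.790) and Gad1 (0.772, 0.598 to 0.994) were lower by reads. Rbfox3 (1.85, 1.06 to 3.31) and Snap25 (1.501, 1.16 to 1.96) were higher. The summed TPM of neuron markers does not show these opposite calls. Myrf (0.710, 0.573 to 0.879) and Cnp (0.945, 0.903 to 0.990) were lower among 6 measured oligodendrocyte markers. Aif1 (0.778, 0.635 to 0.953) was lower among 6 measured microglia markers. The part of cell type makeup in the mitotic values was not tested.

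**Figure D1:**
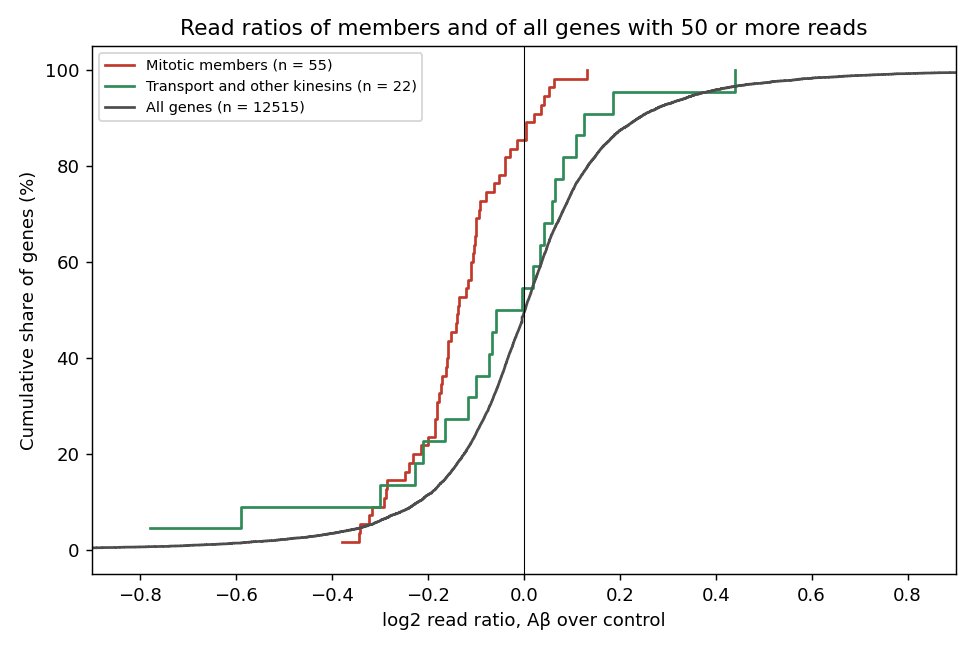
The cumulative share of genes (%) is plotted against the log2 read ratio (Aβ over control) for 55 mitotic members, 22 transport and other kinesins, and all 12515 genes with 50 or more reads. The mitotic curve lies left of the other curves around its median of −0.14, and the curve of the transport kinesins crosses 50% near −0.03.

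The mitotic members were well covered, which bears on the calls by reads. The median member of all 87 had 1992 reads over both libraries. Deeper genes have narrower intervals, so the same rule was read among genes with 1000 or more reads, a limit chosen after the values were seen. There 40 of 45 mitotic members had ratios under 1, against 50.8% of 6499 genes, and 27 of 45 mitotic members (60%) were lower by reads and 1 higher, against 17% and 14.8% of those genes. In that class 5 of the 45 were at least 1.2-fold lower and 0 at least 1.2-fold higher, against 2.28% and 2.92% of genes.

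For scale, the median gene with 50 or more reads stood at 22.5 TPM in each library. Of 56 mitotic members, 54 were at 10 TPM or more in both libraries. The highest were Top2a (183 TPM with Aβ, 200 TPM in DMSO controls), Bub3 (174 TPM with Aβ, 204 TPM in DMSO controls), Tpx2 (152 TPM with Aβ, 171 TPM in DMSO controls) and Kif22 (125 TPM with Aβ, 140 TPM in DMSO controls). The lowest were Kif14 at 9.98 and 12.4 TPM and Kif4b at 0.20 and 0.16 TPM, Aβ before control. Cargo kinesins ran from 0.11 TPM (Kif26b) to 94.4 TPM (Kif5b) with Aβ, and between 0.13 and 92.2 TPM for the same genes in the control. Kif4b, Kif9 (11 and 21 reads) and Kif26b (8 and 10 reads) were under the read limit and have no call.

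**Figure D2:**
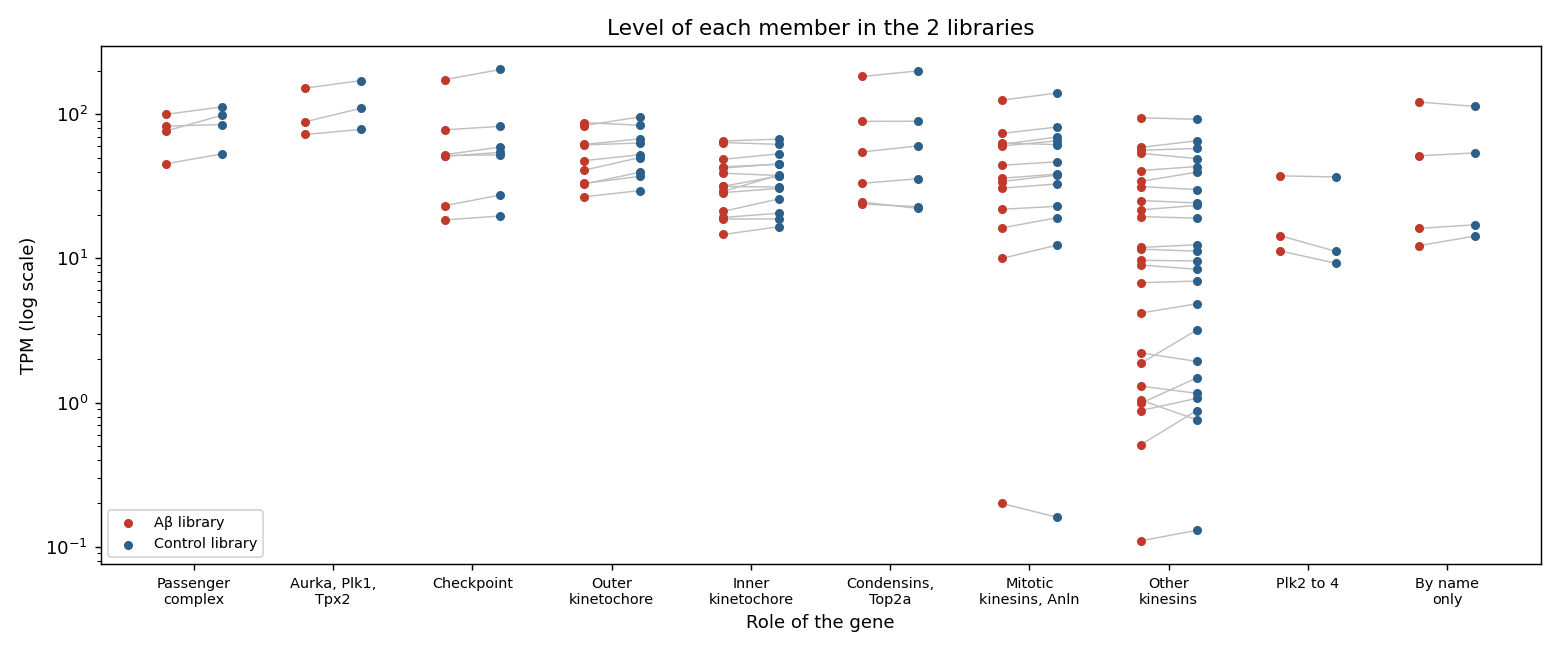
Each point is the TPM (log scale) of 1 of 87 genes in 1 library, with the Aβ library left of the control library within each role and a line joining the same gene. In the passenger, Aurka, Plk1 and Tpx2, and checkpoint groups every line is higher at its control end, while among other kinesins lines go both ways.

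The promoters of the mitotic members had features in common that the choice by symbol did not use. Mitotic promoters are known for the cell cycle genes homology region (CHR, letters TTTGAA, with TTTAAA as a second form), bound by the DREAM and B-MYB complexes, and for CCAAT boxes, bound by NF-Y. Promoters of S-phase genes are known for E2F sites, searched here as TTCCCGC or TTTGGCG. Sequences of 250 bases before to 50 after the annotated start came from RefSeq (build GRCr8), matched for 73 of 87 members by gene number, and both strands were searched. The promoters of the 4 mitotic members with the lowest read ratios (among those matched, with whole reads and 200 or more reads) are shown with that of Plk2, the member with the highest ratio at that depth. All matches of these motifs on either strand are in capitals, and each sequence reads 5′ to 3′ on the gene's strand.
Cenpw, chr1:29353720-29354019, plus strand: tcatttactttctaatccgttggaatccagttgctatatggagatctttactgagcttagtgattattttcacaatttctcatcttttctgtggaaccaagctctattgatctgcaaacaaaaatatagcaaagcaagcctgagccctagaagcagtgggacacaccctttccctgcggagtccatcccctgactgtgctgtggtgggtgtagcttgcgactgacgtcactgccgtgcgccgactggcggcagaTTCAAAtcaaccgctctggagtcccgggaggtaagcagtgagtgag
Birc5, chr10:103571896-103572195, plus strand: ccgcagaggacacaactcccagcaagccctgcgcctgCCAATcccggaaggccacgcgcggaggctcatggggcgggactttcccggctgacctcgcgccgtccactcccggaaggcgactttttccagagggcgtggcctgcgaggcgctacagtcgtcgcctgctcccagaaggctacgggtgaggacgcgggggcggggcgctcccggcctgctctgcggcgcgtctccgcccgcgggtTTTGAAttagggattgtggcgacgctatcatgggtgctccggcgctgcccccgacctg
Cenpa, chr6:31431503-31431802, minus strand: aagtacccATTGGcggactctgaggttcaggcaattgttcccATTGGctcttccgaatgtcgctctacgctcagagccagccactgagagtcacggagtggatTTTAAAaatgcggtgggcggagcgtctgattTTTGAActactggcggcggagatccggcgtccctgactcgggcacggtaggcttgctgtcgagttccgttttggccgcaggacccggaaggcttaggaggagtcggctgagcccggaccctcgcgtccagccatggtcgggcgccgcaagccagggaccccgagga
Plk1, chr1:186147408-186147707, plus strand: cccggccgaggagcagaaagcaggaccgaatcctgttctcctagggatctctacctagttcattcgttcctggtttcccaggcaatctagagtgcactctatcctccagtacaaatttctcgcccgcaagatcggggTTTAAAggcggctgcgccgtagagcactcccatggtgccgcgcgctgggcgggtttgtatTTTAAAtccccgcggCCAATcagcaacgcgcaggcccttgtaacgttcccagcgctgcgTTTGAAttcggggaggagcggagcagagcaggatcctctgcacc
Plk2, chr2:43702286-43702585, plus strand: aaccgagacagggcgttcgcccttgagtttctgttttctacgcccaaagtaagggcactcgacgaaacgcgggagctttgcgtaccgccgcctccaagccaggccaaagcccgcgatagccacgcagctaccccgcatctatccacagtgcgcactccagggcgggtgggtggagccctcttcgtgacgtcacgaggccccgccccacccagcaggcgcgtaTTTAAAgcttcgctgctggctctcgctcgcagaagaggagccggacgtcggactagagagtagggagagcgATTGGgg

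All 4 mitotic promoters held TTTGAA on 1 of the strands. Its first base lay 4 bases after the annotated start in Cenpw, 8 bases before it in Birc5, 116 bases before it in Cenpa and 6 bases after it in Plk1. Birc5, Cenpa and Plk1 also had a CCAAT box on 1 of the strands, and Cenpa and Plk1 had TTTAAA. The Plk2 promoter held TTTAAA and CCAAT but not TTTGAA. The Plk3 promoter, that of the next highest member at that depth, had no match of any of the motifs.

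Over the whole set, TTTGAA was in 26 of 49 mitotic promoters (53.1%) and 1 of 18 promoters of transport and other kinesins (5.56%), against 11.2% of 9965 promoters of genes with 50 or more reads and 18.3% of all 33469 promoters in the table. Within 50 bases of the start it was in 20 of the 49 (40.8%) and in 2.83% of the 9965. CCAAT was in 27 mitotic promoters (55.1%) and in 38% of the 9965 and 37.5% of all. TTTAAA was in 11 (22.4%), against 8.66% and 13.6%, and an E2F-type match in 9 (18.4%), against 10.9% and 5.51%. Median GC content was 58% in mitotic promoters, 66.5% in those of transport and other kinesins and 61.3% in the 9965. In 1 of the 73 member promoters matches of different motifs overlapped.

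Within the mitotic members, promoters of those lower by reads and of the others held the motifs at different shares. TTTGAA was in 17 of 26 promoters of members lower by reads (65.4%) and 9 of 23 of the others (39.1%). TTTAAA was in 10 of the 26 and 1 of the 23. The E2F-type match was in 0 of the 26 and 9 of the 23, which were Cenpb, Cenpc, Cenph, Cenpn, Cenpo, Kif18a, Kif18b, Kif23 and Ncaph2. In read ratio the groups with and without a motif lay close, and the intervals of their medians overlapped for each motif taken alone. These intervals run over genes of 1 pair of libraries and measure no spread between cultures. The median log2 ratio was −0.16 (−0.18 to −0.11) for 26 members with TTTGAA and −0.10 (−0.14 to −0.04) for 23 without it. For CCAAT it was −0.16 (−0.18 to −0.12) with and −0.10 (−0.14 to −0.03) without. For TTTAAA it was −0.18 (−0.32 to −0.12) with and −0.11 (−0.15 to −0.09) without. The E2F-type match went with −0.10 (−0.14 to −0.01), against −0.15 (−0.17 to −0.10) without it. The 16 members with both TTTGAA and CCAAT had −0.17 (−0.29 to −0.14). The 33 lacking at least 1 of them had −0.10 (−0.14 to −0.08). Rounded as for the other motifs, these intervals meet at −0.14, and only a further digit (−0.140 against −0.138) separates them. Among the splits shown, that of the pair alone had intervals separate even to this degree, so no weight is put on it. These are descriptions of letters in a window: a match is not a bound site, and members not lower by reads include shallow genes whose intervals are wide.

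**Figure D3:**
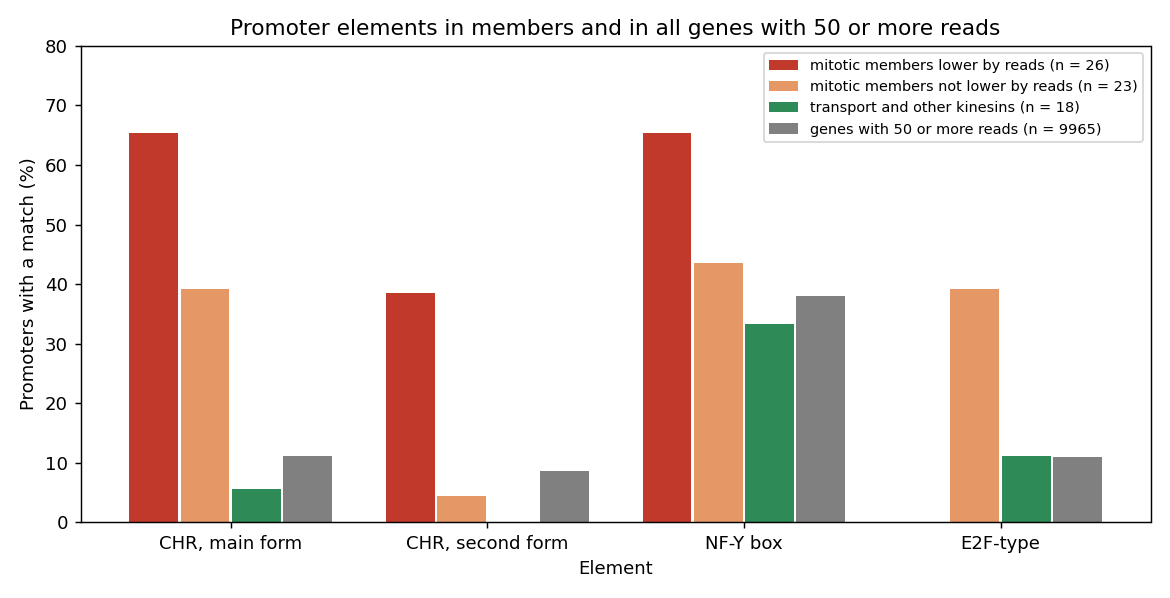
Bars give the share of promoters (%) with a match of each element on either strand in 26 mitotic members lower by reads, 23 mitotic members not lower, 18 transport and other kinesins, and 9965 genes with 50 or more reads. The main CHR form is at 65.4% in the lower members and 11.2% in all genes, and the E2F-type match has no bar (0 of 26) in the lower members.

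The chromosomal passenger complex corrects faulty attachments and guides cytokinesis, and its 4 genes all had ratios under 1, with 3 lower by reads. Birc5, survivin, which targets the complex to centromeres, was at 76.5 TPM in Aβ-exposed OPCs and 98.2 TPM in DMSO controls, from 457 and 578 reads, a read ratio of 0.789 (0.696 to 0.893). Incenp, its scaffold, had 2332 reads in the Aβ library against 2700 in the control library (45.3 and 53.0 TPM), and its read ratio was 0.861 (0.815 to 0.911). Cdca8, borealin, stood at 99.8 TPM in Aβ-exposed OPCs, against 112 TPM in DMSO controls, with 1262 and 1416 reads and a ratio of 0.889 (0.823 to 0.960). The kinase of the complex stood nearer to equality than its partners. Aurkb was at 82.7 TPM in Aβ-exposed OPCs and 84.6 TPM in DMSO controls, from 1299 and 1332 reads, a read ratio of 0.973 (0.900 to 1.05). Its interval did not overlap that of Birc5.

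The mitotic kinases Plk1 and Aurka and the Aurka activator Tpx2 were all lower by reads. Plk1, which drives mitotic entry and spindle assembly, had 1748 reads in the Aβ library against 2171 in the control library (88.7 and 110 TPM), and its read ratio was 0.803 (0.754 to 0.856). Tpx2, a spindle assembly factor, stood at 152 TPM in Aβ-exposed OPCs, against 171 TPM in DMSO controls, with 4013 and 4539 reads and a ratio of 0.882 (0.845 to 0.920). Aurka, the centrosomal aurora kinase, was at 72.3 TPM in Aβ-exposed OPCs and 78.4 TPM in DMSO controls, from 1173 and 1272 reads, a read ratio of 0.920 (0.849 to 0.996). The other polo-like kinases had ratios of 1 or more. Plk2, a stress- and activity-induced kinase, had 370 reads in the Aβ library against 289 in the control library (14.4 and 11.2 TPM), and its read ratio was 1.28 (1.09 to 1.49). Plk3, also stress-induced, stood at 11.3 TPM in Aβ-exposed OPCs, against 9.25 TPM in DMSO controls, with 245 and 202 reads and a ratio of 1.21 (1.00 to 1.46). Its interval just includes 1, and the TMM and median-of-ratios scalings put it above 1. Plk4, which starts centriole duplication, was at 37.4 TPM in Aβ-exposed OPCs and 36.7 TPM in DMSO controls, from 1232 and 1214 reads, a read ratio of 1.01 (0.934 to 1.1). Plk1 and Plk2, paralogous kinases, thus stood on opposite sides of 1 with intervals that did not overlap. In the authors' deposited table of gene ontology terms for genes higher with Aβ, Plk2 is the only one of the 87 members named. The terms name 246 genes in all, where the expression table holds 17049. Plk2 is in 12 of 282 terms, among them cognition (27 genes, fold enrichment 2.71, adjusted p 0.000469 in that table) and memory. None of the terms in the authors' deposited table was found by a search for mitosis and microtubule words. That table covers genes higher with Aβ only, so it says nothing of terms among genes that were lower.

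Spindle checkpoint and cohesion genes lay under 1 in 7 of 7 cases, with 4 lower by reads. Bub3, which docks the checkpoint proteins on kinetochores, had 1863 reads in the Aβ library against 2182 in the control library (174 and 204 TPM), and its read ratio was 0.852 (0.800 to 0.906). Ttk, the Mps1 kinase that starts checkpoint signalling, stood at 52.4 TPM in Aβ-exposed OPCs, against 59.1 TPM in DMSO controls, with 1642 and 1858 reads and a ratio of 0.881 (0.824 to 0.942). Bub1b, the BubR1 subunit of the checkpoint complex, was at 51.0 TPM in Aβ-exposed OPCs and 54.4 TPM in DMSO controls, from 2171 and 2331 reads, a read ratio of 0.929 (0.876 to 0.985). All 7 ratios were on the same side of 1, and that of Bub1 was the closest to it. Bub1, a kinetochore kinase, had 2260 reads in the Aβ library against 2301 in the control library (51.6 and 52.3 TPM), and its read ratio was 0.980 (0.924 to 1.04). Mad2l1, the Mad2 inhibitor of anaphase, stood at 77.9 TPM in Aβ-exposed OPCs, against 82.3 TPM in DMSO controls, with 1436 and 1534 reads and a ratio of 0.934 (0.868 to 1.00). The shugoshins guard centromeric cohesion. Sgo2 was at 23.2 TPM in Aβ-exposed OPCs and 27.5 TPM in DMSO controls, from 902.64 and 1069.08 reads, a read ratio of 0.842 (0.770 to 0.921). Sgo1 had 579 reads in the Aβ library against 620 in the control library (18.5 and 19.7 TPM), and its read ratio was 0.931 (0.830 to 1.04). Sgo2 had reads that were not whole, which can come from reads shared between gene models.

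The outer kinetochore binds microtubules through the Ndc80 complex, assisted by the Ska complex, and 6 of its 9 genes were lower by reads. Ndc80 stood at 61.7 TPM in Aβ-exposed OPCs, against 67.4 TPM in DMSO controls, with 1529 and 1733 reads and a ratio of 0.880 (0.821 to 0.943). Nuf2, its dimer partner, was at 83.4 TPM in Aβ-exposed OPCs and 95.5 TPM in DMSO controls, from 1288 and 1476 reads, a read ratio of 0.870 (0.807 to 0.939). Spc24 had 376 reads in the Aβ library against 457 in the control library (40.9 and 49.9 TPM), and its read ratio was 0.821 (0.714 to 0.943). The fourth subunit went the other way. Spc25 stood at 87.5 TPM in Aβ-exposed OPCs, against 83.8 TPM in DMSO controls, with 869 and 830 reads and a ratio of 1.04 (0.948 to 1.15). The intervals of Spc24 and Spc25, which form a dimer in the complex, did not overlap. Cenpf, a large protein of the outer corona, was at 32.7 TPM in Aβ-exposed OPCs and 39.5 TPM in DMSO controls, from 3341 and 4065 reads, a read ratio of 0.820 (0.783 to 0.858). Cenpe, the kinesin that carries chromosomes to the spindle equator, had 2100 reads in the Aβ library against 2338 in the control library (26.7 and 29.5 TPM), and its read ratio was 0.896 (0.844 to 0.951). The Ska genes were at or under 0.973 in read ratio, and 1 of 3 was lower by reads. Ska3 stood at 47.6 TPM in Aβ-exposed OPCs, against 52.3 TPM in DMSO controls, with 963 and 1057 reads and a ratio of 0.909 (0.832 to 0.993). Ska1 was at 33.1 TPM in Aβ-exposed OPCs and 37.0 TPM in DMSO controls, from 409 and 455 reads, a read ratio of 0.897 (0.783 to 1.03). Ska2 had 564 reads in the Aβ library against 578 in the control library (61.2 and 63.1 TPM), and its read ratio was 0.973 (0.865 to 1.09).

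Of 14 centromere and inner kinetochore genes 10 were under 1, 3 were lower by reads and 11 were within counting error. The median was −0.10 on the log2 scale (−0.29 to 0.02) against −0.16 (−0.29 to −0.04) for the outer kinetochore. These groups were not tested against each other. Cenpw, a histone-fold protein of the inner kinetochore, stood at 29.1 TPM in Aβ-exposed OPCs, against 37.8 TPM in DMSO controls, with 394 and 511 reads and a ratio of 0.769 (0.673 to 0.879). Cenpa, the histone H3 variant that marks centromeres, was at 31.6 TPM in Aβ-exposed OPCs and 37.2 TPM in DMSO controls, from 639 and 808 reads, a read ratio of 0.789 (0.710 to 0.876). Cenpl had 312 reads in the Aβ library against 381 in the control library (21.2 and 25.8 TPM), and its read ratio was 0.817 (0.701 to 0.951). Cenpt, the histone-fold partner of Cenpw, had a ratio of 0.958 (0.857 to 1.07). At the upper end stood Cenpm at 1.04 (0.898 to 1.2), Cenpi at 1.02 (0.945 to 1.11) and Cenpq at 1.00 (0.815 to 1.23). Cenpk (1.02, 0.842 to 1.22) and Cenpu (0.933, 0.786 to 1.11) had reads that were not whole. The DNA-binding protein gene Cenpb was at 0.964 (0.900 to 1.03). The remaining members of this layer, Cenpc, Cenph, Cenpn and Cenpo, had ratios between 0.885 and 0.939 with intervals that included 1. For Cenpa the TPM ratio was less low than the read ratio, by 0.11 on the log2 scale, and for Ndc80 by 0.06; they were the measured members where TPM and reads differed by over 0.05.

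The condensin subunits found split by complex, and Top2a was lower by reads. Top2a, topoisomerase IIα, stood at 183 TPM in Aβ-exposed OPCs, against 200 TPM in DMSO controls, with 8907 and 9790 reads and a ratio of 0.907 (0.882 to 0.934). Ncapd2, a condensin I subunit, was at 54.7 TPM in Aβ-exposed OPCs and 60.3 TPM in DMSO controls, from 2431 and 2694 reads, a read ratio of 0.900 (0.852 to 0.951). Ncapg, also of condensin I, had 1335.35 reads in the Aβ library against 1443.18 in the control library (33.2 and 35.6 TPM), and its read ratio was 0.923 (0.856 to 0.995). Condensin II, the complex that stays in the nucleus through the cycle, had ratios near or above 1. Ncapg2 stood at 24.5 TPM in Aβ-exposed OPCs, against 22.2 TPM in DMSO controls, with 1402 and 1277 reads and a ratio of 1.1 (1.01 to 1.18). Ncapd3 was at 23.8 TPM in Aβ-exposed OPCs and 22.9 TPM in DMSO controls, from 1197 and 1159 reads, a read ratio of 1.03 (0.949 to 1.12). Ncaph2 had 2763.44 reads in the Aβ library against 2783.06 in the control library (89.2 and 89.4 TPM), and its read ratio was 0.990 (0.939 to 1.04). The condensin I subunit gene Ncaph was not among the members, so condensin I is summed over 2 subunits and condensin II over 3. Condensin I had 3766 reads in the Aβ library against 4137 in the control library (ratio 0.908, 0.868 to 0.949). Condensin II had 5362 and 5219 (1.02, 0.986 to 1.06). This split was made after the values were seen. Ncapg and Ncaph2 had reads that were not whole, and with a 99% interval the calls of Ncapg and Ncapg2 were lost.

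Of 12 measured mitotic kinesins and anillin genes, 11 were under 1 and 8 were lower by reads. Kif14, a cytokinesis kinesin, stood at 9.98 TPM in Aβ-exposed OPCs, against 12.4 TPM in DMSO controls, with 709 and 885 reads and a ratio of 0.799 (0.723 to 0.883). Kif20b, which also acts late in division, was at 16.3 TPM in Aβ-exposed OPCs and 19.1 TPM in DMSO controls, from 872 and 1026 reads, a read ratio of 0.848 (0.774 to 0.929). Kif2c, the microtubule depolymerase MCAK, had 1612 reads in the Aβ library against 1828 in the control library (61.7 and 69.5 TPM), and its read ratio was 0.880 (0.822 to 0.941). Motors of the spindle and chromosome arms were also lower by reads. Kif11, the Eg5 motor that separates the spindle poles, stood at 60.1 TPM in Aβ-exposed OPCs, against 65.4 TPM in DMSO controls, with 2779 and 3045 reads and a ratio of 0.910 (0.864 to 0.959). Kif22, a chromosome-arm motor, was at 125 TPM in Aβ-exposed OPCs and 140 TPM in DMSO controls, from 2307 and 2595 reads, a read ratio of 0.887 (0.838 to 0.938). Kif4a, a chromosome-bound motor, had 1499 reads in the Aβ library against 1674 in the control library (34.1 and 37.8 TPM), and its read ratio was 0.893 (0.832 to 0.958). Among motors of the central spindle the values differed. Kif20a stood at 73.5 TPM in Aβ-exposed OPCs, against 81.5 TPM in DMSO controls, with 2007.46 and 2236.04 reads and a ratio of 0.895 (0.842 to 0.951). Kif23, the motor subunit of centralspindlin, was at 63.1 TPM in Aβ-exposed OPCs and 61.5 TPM in DMSO controls, from 2012 and 2000 reads, a read ratio of 1.00 (0.943 to 1.07). Anln, anillin of the cytokinetic ring, had 2051.01 reads in the Aβ library against 2183.35 in the control library (44.2 and 46.8 TPM), and its read ratio was 0.937 (0.882 to 0.996). Kif23 was the sole measured gene of this group with a ratio over 1, and its interval lay around 1. Kif15, Kif18a and Kif18b had ratios of 0.947, 0.930 and 0.926 with intervals that included 1. Kif20a and Anln had reads that were not whole.

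**Figure D4:**
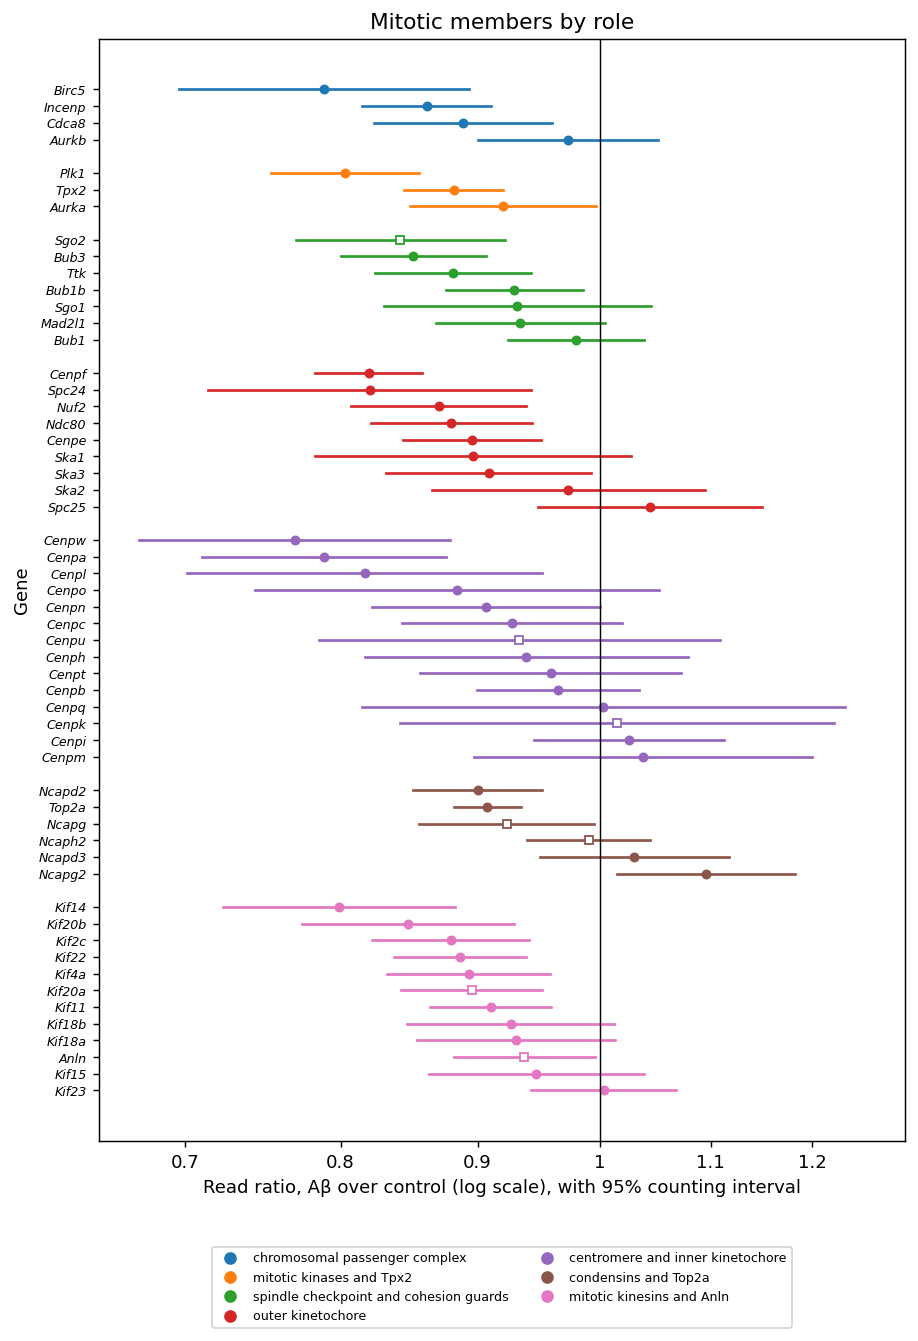
Points are read ratios (Aβ over control, log axis) of 55 mitotic members, grouped by role and ordered within it, with 95% counting intervals as lines and open squares for genes whose reads were not whole. Most points lie left of 1, and Ncapg2 is the gene whose interval lies wholly to the right.

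Transport and other kinesins lay on both sides of 1, while their summed reads were slightly lower with Aβ (ratio 0.966, 0.951 to 0.983). Kif5b, a conventional kinesin heavy chain, stood at 94.4 TPM in Aβ-exposed OPCs, against 92.2 TPM in DMSO controls, with 5533 and 5275 reads and a ratio of 1.05 (1.01 to 1.09). Kif2a, a microtubule depolymerase, was at 53.5 TPM in Aβ-exposed OPCs and 49.2 TPM in DMSO controls, from 2206.58 and 2041.72 reads, a read ratio of 1.08 (1.01 to 1.15). Its reads were not whole. The paralogs Kif5a and Kif5c were at 1.14 (0.802 to 1.62) and 1.02 (0.926 to 1.13), so all 3 kinesin-1 heavy chains had ratios over 1, and that of Kif5b alone lay outside counting error. Among kinesins lower by reads, Kif21b, a processive motor that limits microtubule growth, had 3108 reads in the Aβ library against 3627 in the control library (34.2 and 39.6 TPM), and its read ratio was 0.855 (0.814 to 0.897). Kif1a, a carrier of synaptic vesicle precursors in neurons, stood at 58.9 TPM in Aβ-exposed OPCs, against 65.3 TPM in DMSO controls, with 3271 and 3654 reads and a ratio of 0.893 (0.851 to 0.936). Kif1b, needed for myelin basic protein mRNA transport in zebrafish oligodendrocytes, was at 40.7 TPM in Aβ-exposed OPCs and 43.3 TPM in DMSO controls, from 2499 and 2671 reads, a read ratio of 0.933 (0.883 to 0.986). The kinesin-2 subunits that drive ciliary transport were split. Kif3b had 1203 reads in the Aβ library against 1300 in the control library (21.7 and 23.3 TPM), and its read ratio was 0.923 (0.853 to 0.999). Kif3a stood at 31.5 TPM in Aβ-exposed OPCs, against 30.0 TPM in DMSO controls, with 1097 and 1051 reads and a ratio of 1.04 (0.956 to 1.13). Kif3c was at 1.03 (0.933 to 1.14).

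Kinesins of cilia and other roles lay mostly within counting error. Kif24, a centriolar kinesin, was at 1.06 (0.938 to 1.2) and Kif7, a Hedgehog regulator at the cilium tip, at 0.997 (0.871 to 1.14). Kif19, a kinesin of motile cilia, had 61.82 reads with Aβ and 105.78 in the control, a ratio of 0.583 (0.419 to 0.806). It was the lowest measured member, at 1.87 and 3.18 TPM, with reads that were not whole. Other ciliary kinesins were scarce, with 34 and 25 reads for Kif6 and 58 and 53 for Kif27, and their intervals included 1. Kif17 (30 and 45 reads) and Kif26a (57 and 70) likewise had intervals that included 1. Kif16b was at 0.865 (0.721 to 1.04), and Kif13a, Kif13b, Kif1c and Kif21a had ratios between 0.951 and 1.01 with intervals that included 1.

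The remaining 4 members matched the choice by symbol and were placed in none of the roles above, and 3 of them had intervals that included 1. Aurkaip1, a mitochondrial ribosome protein, had a ratio of 1.1 (0.984 to 1.23), Kif1bp, a kinesin-binding protein, 0.951 (0.876 to 1.03), and Cenpv 0.941 (0.797 to 1.11). Cenpj, a centriole assembly protein, was lower by reads at 0.853 (0.758 to 0.960).

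**Figure D5:**
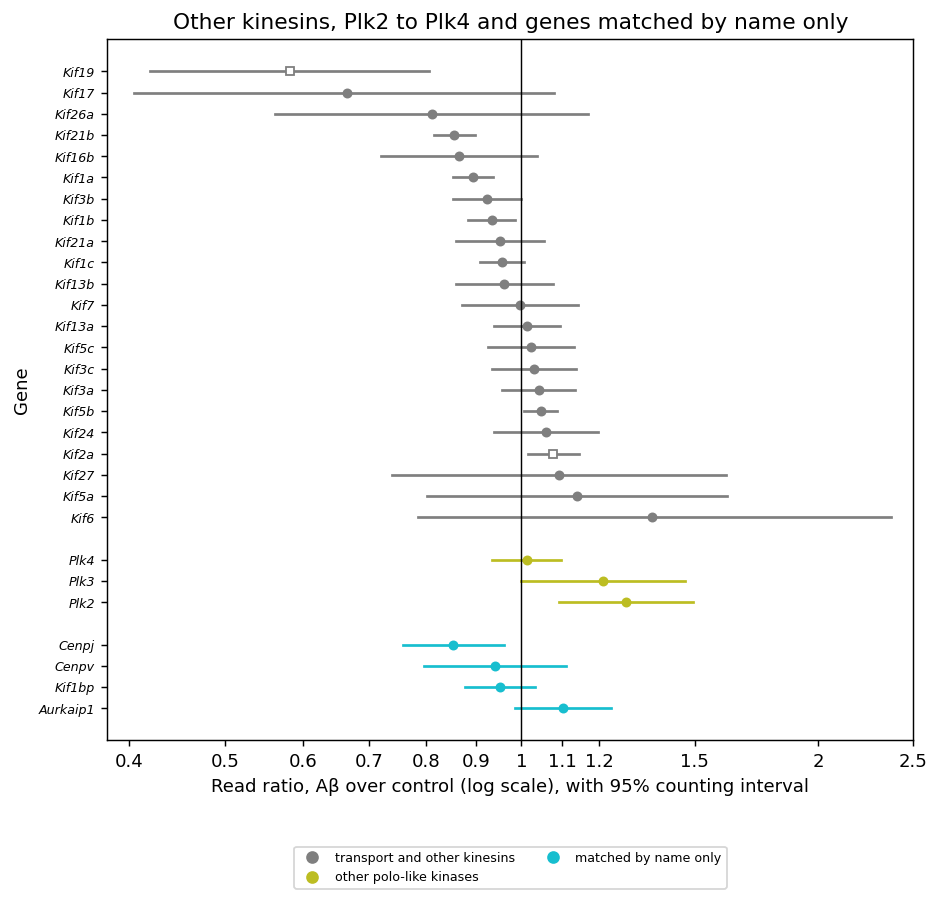
Points are read ratios (Aβ over control, log axis) with 95% counting intervals for 22 transport and other kinesins, Plk2, Plk3 and Plk4, and 4 genes matched by name only. Open squares are genes whose reads were not whole. The points lie on both sides of 1, from Kif19 at 0.583 to Kif6 at 1.36, and the widest intervals belong to the scarcest genes.

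Mitotic genes outside the symbol rule mostly had ratios under 1, and the lists were not tested against each other. Of all genes with 50 or more reads, 12.7% were lower by reads, 12.2% were higher and 49.4% had ratios under 1. At 1000 or more reads 17% were lower and 14.8% higher. Of 34 further spindle, kinetochore and cytokinesis genes, 34 had ratios under 1, 16 were lower by reads and 0 higher. Their median was −0.09 on the log2 scale (−0.14 to −0.08). Among genes with whole reads, the ends of that list were Spdl1, an adaptor of dynein at kinetochores (0.798, 0.695 to 0.916), and Nsl1 of the Mis12 complex (0.821, 0.733 to 0.919), and at the other end Bora (0.986, 0.861 to 1.13) and Zwint (0.983, 0.939 to 1.03). Of 12 cohesin genes 10 were under 1, 6 were lower by reads and 0 higher, with a median of −0.11 (−0.14 to −0.02), from Esco2 (0.881, 0.816 to 0.952) and Stag1 (0.905, 0.846 to 0.969) to Smc3 (1.01, 0.961 to 1.06) and Pds5a (1.01, 0.970 to 1.06). Of 21 genes of the anaphase promoting complex and its regulators 15 were under 1, 5 were lower by reads and 0 higher, with a median of −0.06 (−0.13 to 0.02), and among those with whole reads Anapc16 (0.834, 0.718 to 0.967) and Anapc4 (0.905, 0.836 to 0.980) stood lowest. Anapc13 (1.11, 0.956 to 1.28) and the ubiquitin carrier Ube2c (1.08, 0.989 to 1.19) stood highest among those genes, both with intervals that included 1.

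Most cyclins and regulators of mitotic entry had ratios under 1. Of 12 genes around Cdk1, 9 had ratios under 1. By reads 5 of the 12 were lower and 1 higher, against 12.7% and 12.2% of all genes. The median of the 12 was −0.08 (−0.13 to 0.02). Ccnf (0.882, 0.819 to 0.950) and the phosphatase gene Cdc25b (0.900, 0.815 to 0.993) were lowest, and the gene of the Cdk1-inhibiting kinase Wee1 was the 1 higher, at 55.4 TPM in Aβ-exposed OPCs, against 46.6 TPM in DMSO controls (1.18, 1.1 to 1.26). Pkmyt1, of the related inhibitory kinase, stood within counting error (1.01, 0.825 to 1.25). Of 12 genes for transcription factors of the mitotic program, 8 had ratios under 1. By reads 1 was lower and 1 higher, near the shares of all genes. The lower was Foxm1, the factor that drives G2 and M genes (0.912, 0.849 to 0.980), and the higher was the DREAM subunit gene Lin37 (1.26, 1.04 to 1.52), while Rbl2 (0.911, 0.828 to 1.00) and Lin54 (1.04, 0.940 to 1.15) were within counting error.

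DNA replication genes, which act before mitosis, were also lower in median. Of 36 measured, 31 had ratios under 1, where 47 of 55 mitotic members did. By reads 15 of the 36 were lower and 1 higher, against 12.7% and 12.2% of all genes. The median of the 36 was −0.11 (−0.16 to −0.05). Their summed reads gave a ratio of 0.946 (0.936 to 0.957), against 0.908 (0.899 to 0.917) for the mitotic members; these ratios are set side by side without a test over replicates. Gins3 (0.807, 0.686 to 0.949) and Mcm10 (0.816, 0.750 to 0.889) of the replication helicase machinery stood lowest, and Prim1 (1.09, 0.995 to 1.18) and Cdc45 (1.16, 1.02 to 1.33) highest.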

How the data were processed

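RNA of 2 cultures of adult rat OPCs was sequenced, 1 library per group, from 1 µg of total RNA with an mRNA kit, per the labels' protocols. The submitters' processing notes name Bowtie2 and the build Rnor_6.0; which tool counted reads, and over which gene models, is not stated there. The authors' deposited table gives estimated counts of reads, which are not whole for 2288 of 17049 genes (13.4%) and were rounded for intervals, together with TPM and FPKM. FPKM was not used. A deposited column named normalized read count equals the count rounded up in all 17049 rows and was treated as a score. Per the file headers, the authors' table of enriched terms holds a fold enrichment (a ratio), a z score and a p-value for each term.

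Read ratios were computed in Python 3.11.15 with SciPy 1.17.1, over genes with 50 or more reads, and the steps were tested on simulated data. A count of 0 allows up to 3 reads (0.191 CPM with Aβ, 0.192 CPM in the control). With 1 library per group, intervals cover counting error only. Reads carry no molecular identifiers, so copies of 1 molecule may be counted as separate reads, and the intervals may be too narrow. TMM (edgeR 4.0.16) and median-of-ratios (DESeq2 1.42.0) scalings, TPM, other filters, a 99% interval and other folds were tried. Named genes are 23 always named, the 3 lowest and 3 highest of each role and 2 of each end of each other list (whole reads, 200 or more reads), and members with reads that are not whole. The other members and the cell type markers outside this rule were named after their values were seen. For the marker lists the naming rule was not followed in full. Their summed levels are given, with the read ratios of the markers called lower or higher by reads. Members and lists were chosen with earlier results of these data known. RefSeq sequences (GRCr8) were used for promoters. Members without an entry there were Aurkaip1, Aurkb, Cenpt, Incenp, Kif13b, Kif14, Kif19, Kif21b, Kif26a, Kif4b, Kif5a, Kif7, Sgo2 and Tpx2.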

Additional observations from a re-analysis of the deposited data

How the results depend on the processing

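No paired analysis was possible because each group has 1 library, and for the same reason no library could be left out. The median log2 ratio stayed below 0 for all members, mitotic members and other kinesins under every scaling, unit and filter tried, and inside its main interval, and the all-gene median moved by under 0.01. The 36 members lower by reads became 29 with a 99% interval and 31 without genes whose reads are not whole, and the 4 higher by reads became 5 with TMM or median-of-ratios scaling and 1 with the 99% interval. Members at least 1.2-fold lower numbered 11; at 1.1-fold there were 35 and at 1.5-fold 2. Members at least 1.2-fold higher numbered 3, with 1 by TPM with a pseudocount of 1, 5 at 1.1-fold and 0 at 1.5-fold. At 99% the calls of Anln, Aurka, Bub1b, Kif2a, Kif5b, Ncapg, Ncapg2 and Ska3 were lost among 60 members named by the rule. With 1 library a group, differences of this size cannot be told from culture-to-culture variation.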
